A study of Homo sapiens with 8 samples.

Results

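LYR-motif proteins and the genes that build iron-sulfur clusters in mitochondria were examined in the RIP-chip data of A431 cells. The 9 genes were LYRM1, LYRM2, LYRM4, LYRM7, NFS1, ISCU, GLRX5, ISCA1 and ISCA2, out of 22435 genes with a symbol on the array. LYRM1 was selected on its measured values, because it had the largest fall of enrichment among the probes with a gene symbol. The other 8 genes were taken as further LYR-motif genes and as genes of iron-sulfur cluster assembly. Whether LYRM1 acts in that assembly was not tested. The 9 genes had 15 of the 58201 probes on the array. Of these, 12 probes of 8 genes were well above background on all 8 arrays, as were 16808 probes in all, and LYRM7 was the gene without such a probe.

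Iron-sulfur clusters are small cofactors that carry electrons in the respiratory chain and sit in enzymes of the citric acid cycle and of DNA repair. In mitochondria, the cysteine desulfurase NFS1 supplies sulfur to the scaffold protein ISCU, and the new cluster is passed through GLRX5 to late-acting proteins such as ISCA1 and ISCA2. LYR-motif proteins are small mitochondrial proteins named after a short run of amino acids, and several of them hold a partner protein during the assembly of clusters or of respiratory complexes.

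A431 is a human cell line of cutaneous squamous cell carcinoma. Lysates were made 24 h after the cells had received miR-634 or a negative control (miR-NC) by transfection, each at 10 nM. RNA bound to AGO2, the protein that carries miRNAs to their target mRNAs, was taken from the lysates by RIP. The methods describe the input as total RNA, whereas the sample labels name a normal rabbit IgG antibody for the same arrays, which are treated here as input. Input and RIP of the miR-NC cells and of the miR-634 cells make 4 groups with 2 arrays apiece, and nothing states that the duplicates were separate transfections, so p-values measure the spread between these arrays, which may be technical.

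The labelled cell line was checked against its markers. Of the 11 markers listed for this line, not all particular to keratinocytes, each had a probe well above background on the 4 input arrays. So did 1 of 4 blood markers (CD14), 2 of 3 endothelial markers (CDH5 and VWF), 1 of 3 melanocyte markers (PMEL) and 0 of 3 fibroblast markers, while PECAM1 and MLANA were not well above background on any input array.

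The mature miR-634 that the transfected cells received is shown because its seed, bases 2 to 8 from the 5′ end, is the part that pairs with target mRNAs. RefSeq places it at chr17:66787132-66787153 on the plus strand of GRCh38.p14. Its 22 bases are given 5′ to 3′ with the seed in capitals, and 0 other mature miRNAs among the 2370 names in the RefSeq table had the same seed.
hsa-miR-634: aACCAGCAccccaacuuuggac

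Levels are log2 intensities from which the 75th percentile of the array, taken over the 16808 probes, was subtracted, so a level under 0 lies below that percentile and levels are not compared between genes. Enrichment is the difference in log2 level between RIP and input. Subtracting the miR-NC enrichment from the miR-634 enrichment gives the fold change of enrichment. On the input arrays, 45.6% to 45.8% of the spots were well above background. Fewer spots passed after RIP, namely 33.6% and 34.5% for miR-NC and 40.0% for both miR-634 arrays, and the part of this share in the differences between RIP arrays was not tested. Over the 16808 probes, the fold change of enrichment had a median of -0.26, and scaling on the spike-in probes in place of the percentile moved that median by 1.102, to 0.84. For the brightest probe of each examined gene, the value relative to the median of all probes is therefore given as well. With so few arrays, precision is limited for each value below.

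With percentile scaling, LYRM1 lay above its input in the RIP of miR-NC cells and below it in the RIP of miR-634 cells; with spike-in scaling it lay below its input in both. LYRM1 (NM_020424), a mitochondrial LYR-motif protein, had input levels of -2.66 and -2.79 in miR-NC cells and of -2.91 and -3.11 in miR-634 cells. Its RIP levels were -0.79 and -0.85 in miR-NC cells and -5.23 and -5.06 in miR-634 cells. Both RIP arrays of miR-634 cells thus lay below all other arrays, and no 2 of the 4 groups overlapped. Behind these levels were RIP intensities of 412 and 372 for miR-NC and of 36.7 and 39.9 for miR-634, which were still well above background. The enrichment went from 1.91 in miR-NC cells, a RIP level 3.75 times the input level, to -2.13 in miR-634 cells, a ratio of 0.229. The RIP level differed by -4.32 and the input level by -0.29 between the cells, which gives a fold change of enrichment of -4.03 (standard error 0.13), or -3.77 relative to the median of all probes. With normexp and quantile normalization it was -2.94, or -2.78 relative to the median, and with spike-in scaling -2.93. The input difference was -0.39 without miR-634 input array 1, -0.19 without miR-634 input array 2 and -0.53 with spike-in scaling. All these values belong to the gene that was chosen on them and are a description without a test.

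Among the 13599 measured probes with a gene symbol, LYRM1 ranked 1 by the size of this fall, and among all 16808 probes it ranked 2. The next 3 falls with a symbol were those of H3C1 (-3.998), TOE1 (-3.83) and H3-3A (-3.77). The fall of LYRM1 therefore lay 0.04 below that of H3C1, less than its standard error of 0.13. Its order among them has no meaning beyond that. The 5 genes with the profile most like LYRM1 over the 8 arrays, by Euclidean distance between levels centered on each gene's mean, were SPANXB1 (0.60), SPANXC (0.67), LSM3 (0.95), H3C1 (0.95) and H3C6 (1.45). SPANXB1 and SPANXC are near-identical copies and the histone H3 genes are related, so their probes may read several of them. This was not checked.

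**Figure D1:**
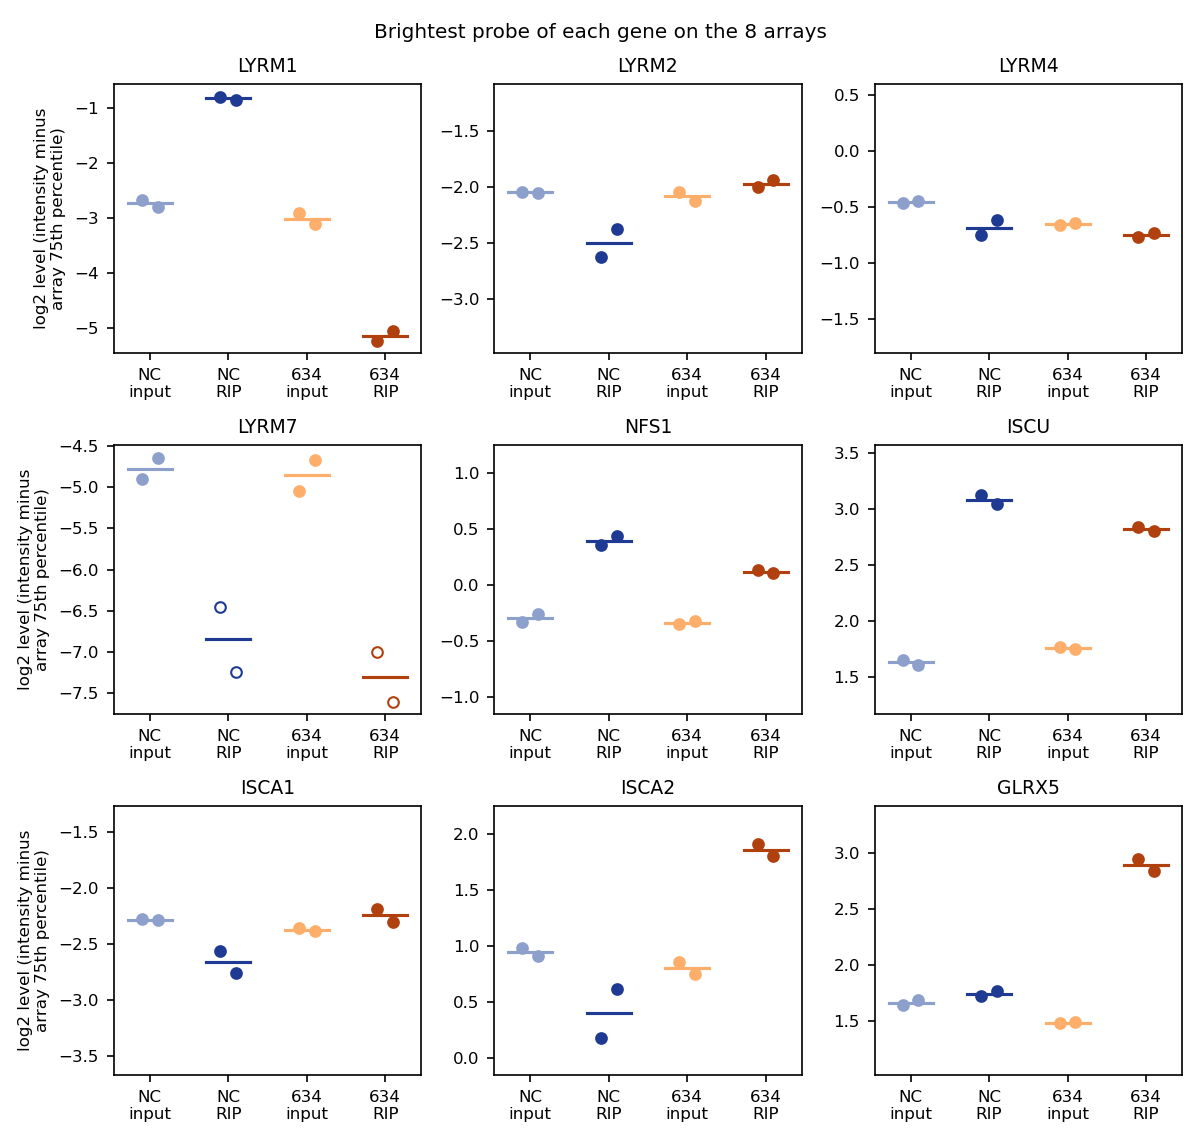
Log2 level of the brightest probe of each gene on the 8 arrays, by group. Points are arrays (2 per group), lines are group means, open points mark groups in which the probe was not well above background on both arrays, and each panel has its own level range; the LYRM1 panel spans the widest range, from -0.79 to -5.23.

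LYRM2 (NM_020466) encodes a small LYR-motif protein of mitochondria. Its input levels were -2.04 and -2.05 in miR-NC cells and -2.05 and -2.12 in miR-634 cells, so the input groups overlapped. Its RIP levels were -2.63 and -2.38 in miR-NC cells and -2.003 and -1.94 in miR-634 cells, without overlap. LYRM2 rose in the RIP by 0.53 (adjusted p = 0.00147, limma), and the enrichment rose by 0.57 (standard error 0.12, adjusted p = 0.00639), or 0.83 relative to the median of all probes. A dimmer LYRM2 probe was well above background on both input arrays of each kind of cell, on 0 miR-NC RIP arrays and on 1 miR-634 RIP array. In miR-NC cells its input was at least 1.01-fold above its RIP. This bound sets the input mean against the RIP mean of, per array, the higher of the probe's own signal and the lowest signal of a probe well above background.

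LYRM4, also called ISD11, binds NFS1 and keeps it stable. Its brightest probe (NM_020408) had input levels of -0.47 and -0.44 in miR-NC cells and of -0.66 and -0.64 in miR-634 cells. The RIP levels, -0.75 and -0.62 in miR-NC cells and -0.77 and -0.73 in miR-634 cells, overlapped. The fold change of enrichment of 0.13 (standard error 0.08, adjusted p = 0.202, limma) did not pass the threshold of 0.05 and was 0.39 relative to the median of all probes; with spike-in scaling it was 1.23 and passed. For this probe, leaving out 1 array gave from 0.065 to 0.196. The 3 LYRM4 probes disagreed. The probe for NM_001164840 gave -0.33 (adjusted p = 0.0152), which turned to 0.77 with spike-in scaling. The dimmest one, again for NM_020408, gave 0.00 (adjusted p = 0.993). The call for NM_001164840 was lost without miR-634 input array 2 or without miR-NC input array 1, with a value of -0.28 in both cases. It was also lost with the percentile taken over all probes, with the authors' processed values, without a filter and by the t-test of the paper's general statistics section.

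LYRM7 holds the Rieske iron-sulfur protein UQCRFS1 until BCS1L inserts it into complex III. The LYRM7 probe (NM_181705) had input levels of -4.91 and -4.64 in miR-NC cells and of -5.04 and -4.67 in miR-634 cells, so the inputs overlapped. On none of the 4 RIP arrays was it well above background. The input was at least 1.37-fold above the RIP in miR-NC cells and at least 2.77-fold above it in miR-634 cells, and no fold change of enrichment is given. UQCRFS1 had a fold change of enrichment of 0.40 (adjusted p = 0.00879), and BCS1L had -0.25 (adjusted p = 0.0656, limma), which was 0.85 with spike-in scaling.

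With percentile scaling, the desulfurase and the scaffold were enriched in the RIP of both kinds of cells, and less so in miR-634 cells. NFS1 (NM_021100), read by 10 spots, had input levels of -0.33 and -0.26 in miR-NC cells and of -0.35 and -0.33 in miR-634 cells. Its RIP levels were 0.35 and 0.44 in miR-NC cells and 0.13 and 0.10 in miR-634 cells. The inputs overlapped and the RIP groups did not. Enrichment of NFS1 was 0.69 in miR-NC cells (adjusted p = 4.21e-05, limma) and 0.45 in miR-634 cells (adjusted p = 0.00023). The change between the cells was -0.24 (standard error 0.08, adjusted p = 0.0312), only 0.03 above the median of all probes, and it turned to 0.87 with spike-in scaling. This call was lost when any 1 of 5 arrays was left out: miR-634 RIP 2 (-0.22), miR-634 input 1 (-0.25), miR-634 input 2 (-0.23), miR-NC RIP 2 (-0.19) or miR-NC input 1 (-0.20). It was also lost with median scaling, the percentile over all probes, the authors' processed values and either looser filter on dim probes. The mean of the NFS1 probes, a value of the gene, was -0.11 and was not called. Relative to the median of all probes, the NM_021100 value turned to -0.04 with quantile and to -0.09 with normexp and quantile normalization. A dimmer NFS1 probe for NM_001198989 gave 0.02 (adjusted p = 0.895), and 1.12 with spike-in scaling, which passed.

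ISCU (NM_014301) had input levels of 1.65 and 1.61 in miR-NC cells and of 1.77 and 1.75 in miR-634 cells. Its RIP levels were 3.13 and 3.04 in miR-NC cells and 2.84 and 2.81 in miR-634 cells. In each kind of cell the RIP arrays thus lay above the input arrays, and the miR-634 RIP arrays lay below the miR-NC RIP arrays. The RIP level of ISCU was 2.74 times its input level in miR-NC cells (adjusted p = 2.39e-06, limma) and 2.09 times in miR-634 cells (adjusted p = 2.98e-06). The change between the cells was -0.39 (standard error 0.07, adjusted p = 0.00359), or -0.13 relative to the median of all probes, and it turned to 0.72 with spike-in scaling.

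GLRX5 (NM_016417), the glutaredoxin that takes the cluster from the scaffold, had input levels of 1.64 and 1.69 in miR-NC cells and of 1.48 and 1.49 in miR-634 cells. Its RIP levels were 1.72 and 1.77 in miR-NC cells and 2.95 and 2.84 in miR-634 cells, so that the miR-634 RIP arrays were the highest of the 8. GLRX5 rose in the RIP by 1.15 (adjusted p = 5.63e-06, limma). Its fold change of enrichment was 1.33, or 2.51-fold (standard error 0.08, adjusted p = 2.28e-05), and 1.59 relative to the median of all probes.

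ISCA2 (NM_194279), which acts with ISCA1 in making the larger clusters, had input levels of 0.98 and 0.91 in miR-NC cells and of 0.86 and 0.75 in miR-634 cells. Its RIP levels were 0.18 and 0.62 in miR-NC cells and 1.91 and 1.81 in miR-634 cells. The RIP arrays lay below the input in miR-NC cells and above it in miR-634 cells, and the miR-NC RIP arrays differed more from each other (SD 0.31) than those of any other group (SD 0.05 to 0.08). The enrichment went from -0.55 (adjusted p = 0.00996, limma) to 1.06 (adjusted p = 0.000368), a fold change of enrichment of 1.60, or 3.04-fold (standard error 0.19, adjusted p = 0.000492), and 1.86 relative to the median of all probes.

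ISCA1 had 3 probes, all for NM_030940, and their values differed. The brightest had input levels of -2.28 on both miR-NC arrays and of -2.36 and -2.39 in miR-634 cells, with RIP levels of -2.56 and -2.76 in miR-NC cells and of -2.18 and -2.31 in miR-634 cells. For this probe, enrichment rose by 0.51 (standard error 0.11, adjusted p = 0.00648, limma), or 0.77 relative to the median of all probes. The miR-634 RIP arrays of this probe lay above the miR-NC RIP arrays, whereas its inputs lay within 0.11 of each other. The middle probe had input levels of -3.87 and -3.90 in miR-NC cells and of -4.68 and -4.89 in miR-634 cells, with RIP levels of -4.06 and -4.03 in miR-NC cells and of -2.61 on both miR-634 arrays. By this probe the input fell by 0.90 (adjusted p = 0.0014) while the RIP rose by 1.43 (adjusted p = 6.57e-06), and the fold change of enrichment was 2.33, or 5.04-fold (adjusted p = 6.6e-06). The dimmest probe was not well above background on either miR-NC RIP array, and its miR-634 RIP was at least 2.999-fold above its miR-NC RIP. Its input levels were -5.07 and -5.17 in miR-NC cells and -5.87 and -5.89 in miR-634 cells, again lower in miR-634 cells without overlap.

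**Figure D2:**
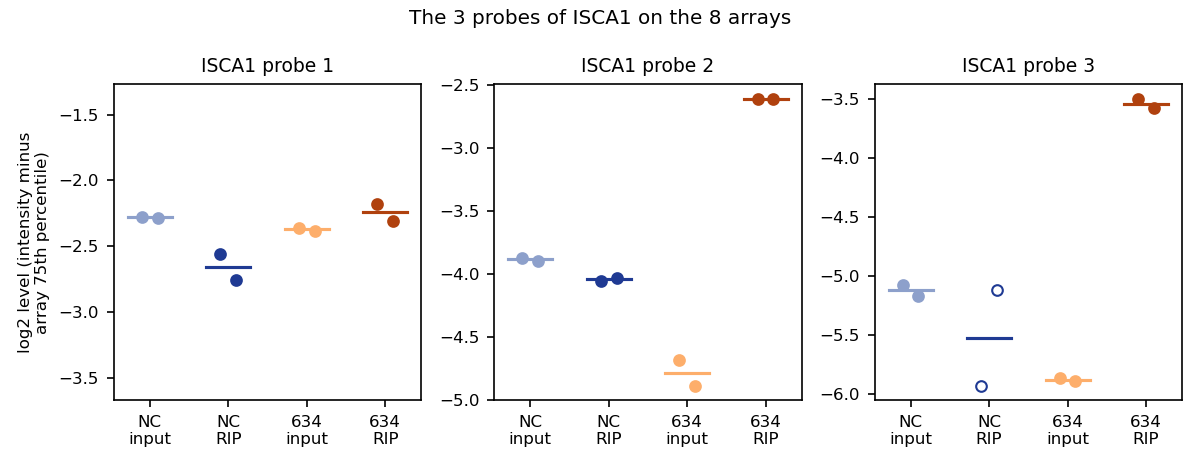
Log2 levels of the 3 ISCA1 probes on the 8 arrays, from the brightest (probe 1) to the dimmest (probe 3), each panel with its own level range. Points are arrays, lines are group means, and open points mark a group in which the probe was not well above background; probes 2 and 3 are lower in the miR-634 input than in the miR-NC input, while the inputs of probe 1 lie close together.

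Counted with 1 probe per gene, the brightest, 7 genes other than LYRM1 were measured on all 8 arrays. In the fold change of enrichment, 4 of the 7 were called higher (LYRM2, GLRX5, ISCA1 and ISCA2), beside 24.9% of all probes. The 2 called lower (NFS1 and ISCU), beside 43.5% of all probes, were higher with spike-in scaling, under which all 7 were called higher, beside 63.4% of all probes. The paper states no test for these arrays, and its fold change cutoff, taken from XIAP, was not applied here. By the t-test of its general statistics section, applied here to the log2 ratio of each replicate number with Benjamini-Hochberg adjustment, only 1 of the 7 was called higher, beside 17.7% of all probes, and LYRM2, ISCA1 and ISCA2 did not pass. At the p threshold of that section without adjustment, the t-test called 3 higher, beside 21.8% of all probes, and 2 lower, beside 34.9%. Without miR-634 RIP array 2, miR-634 input array 1 or 2, miR-NC RIP array 2 or miR-NC input array 1, the count called lower was 1, because NFS1 was lost. The median of the 7 was 0.51, beside -0.26 over all probes, and 6 of the 7 lay above the median of all probes. Among these 6, NFS1 fell below that median with quantile and with normexp and quantile normalization. In the RIP change, the same 4 were called higher, beside 27.3% of all probes, and the same 2 lower, beside 48.6%; with spike-in scaling all 7 were called higher, beside 62.3%. The calls of NFS1 and ISCU as lower in the RIP were both lost with the percentile over all probes and with the authors' processed values. With the mean of the probes, LYRM4 was also called lower in the RIP (-0.29), which made 3.

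In the input change, limma called 0 of the 7 genes higher, beside 8.42% of all probes, and 0 lower, beside 9.83%. At an unadjusted p under 0.05, 1 was higher, beside 15.5% of all probes, and 2 were lower, beside 18.1%. After adjustment, LYRM4 and GLRX5 were called lower with the intensity trend and with normexp and quantile normalization, and LYRM4 and ISCA1 with the mean of the probes. Without miR-NC RIP array 1 or array 2, 1 gene was called lower, LYRM4 at -0.19. Leaving out 1 of the 4 input arrays lowered the calls over all probes from 1415 higher to between 320 and 412, and from 1652 lower to between 551 and 662. Of the other probes, the middle ISCA1 probe fell, and the LYRM4 probe for NM_001164840 had -0.26 (adjusted p = 0.0348), a call that was lost without any 1 of the 4 input arrays (-0.31 to -0.21). This call was also lost with the replicate block, with either looser filter on dim probes, with the percentile over all probes, with the authors' processed values and with spike-in scaling. A lower input in these bulk samples cannot tell fewer cells that hold an mRNA from less of it per cell.

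In miR-NC cells, 2 of the 7 genes were enriched in the RIP (NFS1 and ISCU), beside 36.3% of all probes, and 4 were depleted (LYRM2, LYRM4, ISCA1 and ISCA2), beside 41.1%. Without miR-NC input array 2, 3 were depleted, because LYRM4 was lost. In miR-634 cells, 4 were enriched (NFS1, ISCU, GLRX5 and ISCA2), beside 35.8% of all probes, and limma called 0 depleted, beside 46.7%; the count depleted at an unadjusted p under 0.05 was also 0. With spike-in scaling, the RIP levels of 6 of the 7 were called below the input in miR-634 cells, beside 84.7% of all probes, and those of all 7 in miR-NC cells, beside 98.1%, so enrichment here is relative to the other probes of the array. The comparisons of enrichment, input and RIP share arrays, and their calls are given side by side.

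**Figure D3:**
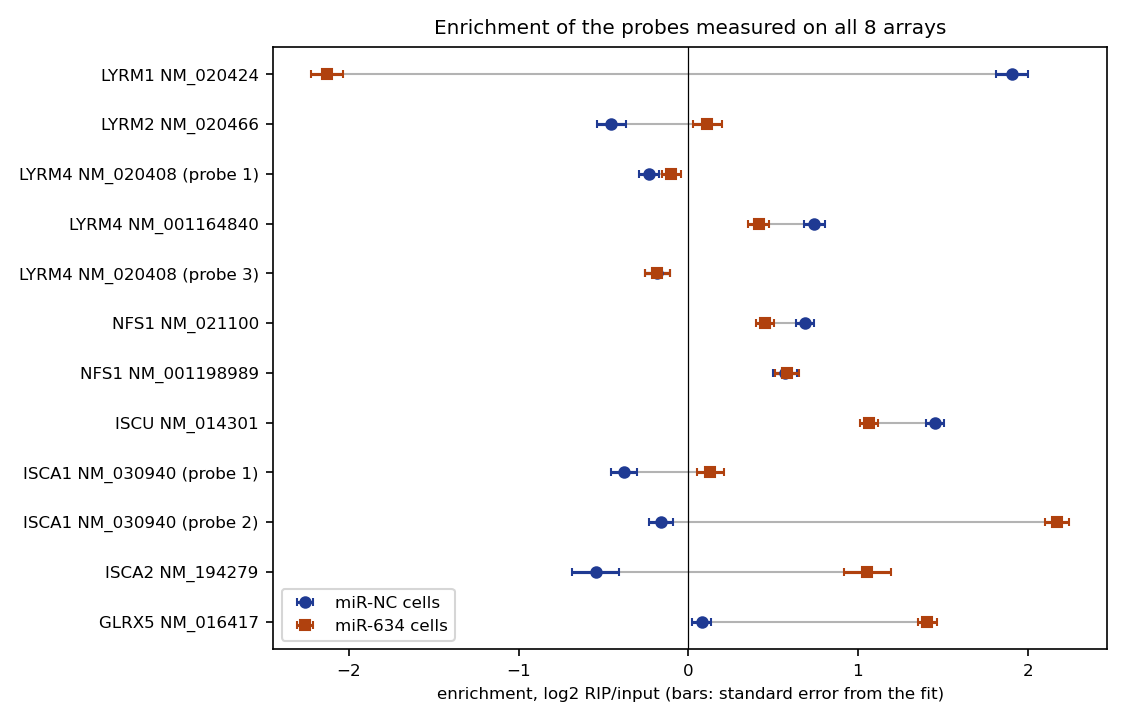
Enrichment (log2 RIP/input) of the 12 probes measured on all 8 arrays, in miR-NC cells (circles) and miR-634 cells (squares), with the standard error of the fit and a line joining the values of a probe. LYRM1 goes from 1.91 to -2.13, while ISCA2 goes from -0.55 to 1.06 and GLRX5 from 0.08 to 1.41.

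**Figure D4:**
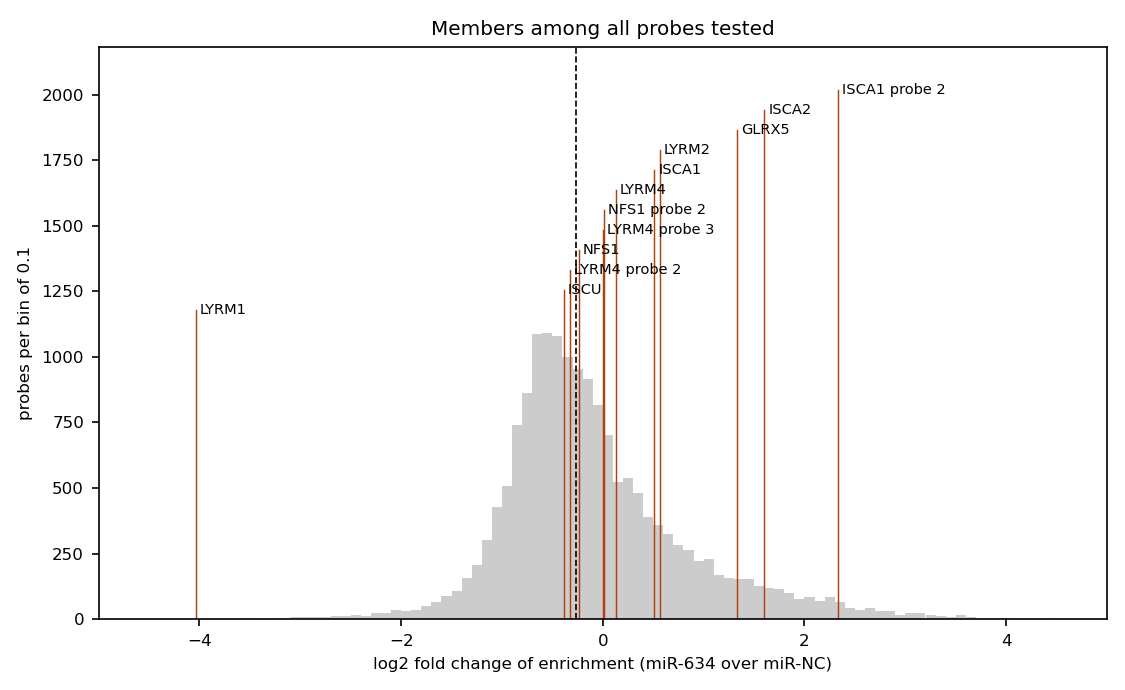
Number of probes by log2 fold change of enrichment (miR-634 over miR-NC) for all 16808 probes tested, in bins of 0.1, with the median of -0.26 as a broken line and the probes of the examined genes as vertical lines, whose heights only separate the names. LYRM1 lies at -4.03 and the middle ISCA1 probe at 2.33; with spike-in scaling the median moves to 0.84.

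The remaining genes of the family and of the pathway were described by the same measure, for which 24.9% of all probes were called higher and 43.5% lower. Of the other LYR-motif genes, 6 of 7 were measured, all but ETFRF1, and 2 were called higher and 3 lower in the fold change of enrichment, with a median of -0.17. LYRM9 had 0.97 (adjusted p = 0.00389, limma) and NDUFA6, a subunit of complex I, had 0.62 (adjusted p = 0.000267). The LYRM9 probe was dim, with intensities from 42.0 to 133 over the 8 arrays, all well above background. SDHAF1, an assembly factor of complex II, had 0.01 (adjusted p = 0.909). Those called lower were NDUFB9, another complex I subunit, at -0.36 (adjusted p = 0.00553), FMC1, an assembly factor of the ATP synthase, at -1.06 (adjusted p = 0.00626), and SDHAF3, another complex II factor, at -1.07 (adjusted p = 0.0136). With spike-in scaling, these last 3 were at 0.74, 0.04 and 0.04. By the t-test after adjustment, 1 of these genes was called higher, beside 17.7% of all probes, and 1 lower, beside 25.8%.

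Of 15 further genes of mitochondrial cluster assembly, 12 were measured, and 4 were called higher and 8 lower, with a median of -0.54, which is below the median of -0.26 over all probes. By the t-test after adjustment, 5 were called lower, beside 25.8% of all probes. The highest were BOLA1 (1.20), which acts with GLRX5, and FDXR (0.90), the ferredoxin reductase that supplies electrons. The lowest were SLC25A28 (-0.86), an iron importer of mitochondria, and NFU1 (-0.81), a late carrier of clusters. They were 0.24 and 0.29 with spike-in scaling. A dimmer NFU1 probe gave -0.94, so their order rests on the probe taken. Of 11 genes of cytosolic assembly, 10 were measured, and 4 were called higher and 3 lower. NDOR1 (1.01) and MMS19 (0.92) were the highest, and NUBP2 (-1.12) and CIAO2A (-0.77) the lowest. The 2 miR-NC RIP arrays of MMS19 lay apart, at -0.91 and -0.32, and the standard error of its value was 0.25. With spike-in scaling, NUBP2 was at -0.02 and CIAO2A at 0.33. The t-test after adjustment called 3 of the 10 higher and 3 lower, beside 17.7% and 25.8% of all probes.

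All 13 mitochondrial proteins that carry a cluster were measured, and 4 were called higher and 6 lower. The highest were NDUFV1 (1.26), of complex I, and CISD1 (1.16), of the outer membrane, and the lowest were LIAS (-1.30), the lipoic acid synthase, and NDUFV2 (-1.13), the partner of NDUFV1. By the t-test after adjustment, 2 of the 13 were called higher, beside 17.7% of all probes. With spike-in scaling LIAS was at -0.19 and NDUFV2 at -0.02. Of 18 cytosolic and nuclear proteins with a cluster, 15 were measured, and 5 were called higher and 4 lower. The DNA glycosylases NTHL1 (2.81, adjusted p = 1.42e-06, limma) and MUTYH (1.83, adjusted p = 4.49e-06) were the highest, and ERCC2 (-0.98) and CISD2 (-0.77), at 0.12 and 0.33 with spike-in scaling, the lowest. A dimmer ERCC2 probe gave only -0.35, so the place of ERCC2 rests on the probe taken. No array could be left out without loss: 2 of these genes were called lower without miR-634 RIP array 2, miR-634 input array 1 or either miR-NC input array, and 3 without any other array. The count was also 3 with the replicate block. It was 2 with median scaling, with normexp and quantile normalization, with the percentile over all probes and with the authors' processed values. The t-test after adjustment called 5 of the 15 higher and 3 lower, beside 17.7% and 25.8% of all probes.

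Of 7 genes of iron handling, 6 were measured, and 1 was called higher and 3 lower. TFRC, the transferrin receptor, had 0.81 (adjusted p = 9.54e-05, limma), and SLC11A2, an iron transporter, had 0.26 (adjusted p = 0.0724). The ferritin chains FTH1 (-1.56, adjusted p = 9.67e-06) and FTL (-0.62, adjusted p = 0.000694) were the lowest, and with spike-in scaling they were at -0.46 and 0.48. Both ferritin genes have near-identical pseudogenes, so their values are uncertain. The t-test after adjustment called 1 of the 6 iron handling genes higher and 2 lower, beside 17.7% and 25.8% of all probes. Without miR-NC RIP array 2, with median scaling and with normexp and quantile normalization, 2 of these genes were called higher instead of 1. With spike-in scaling, the count called lower was 0 in each of these 6 lists, beside 1.71% of all probes. The count called higher under that scaling, beside 63.4% of all probes, was 4 of 6 for the other LYR-motif genes, 4 of 12 for mitochondrial assembly, 7 of 10 for cytosolic assembly, 8 of 13 for mitochondrial proteins with a cluster, 12 of 15 for cytosolic and nuclear ones and 3 of 6 for iron handling.

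**Figure D5:**
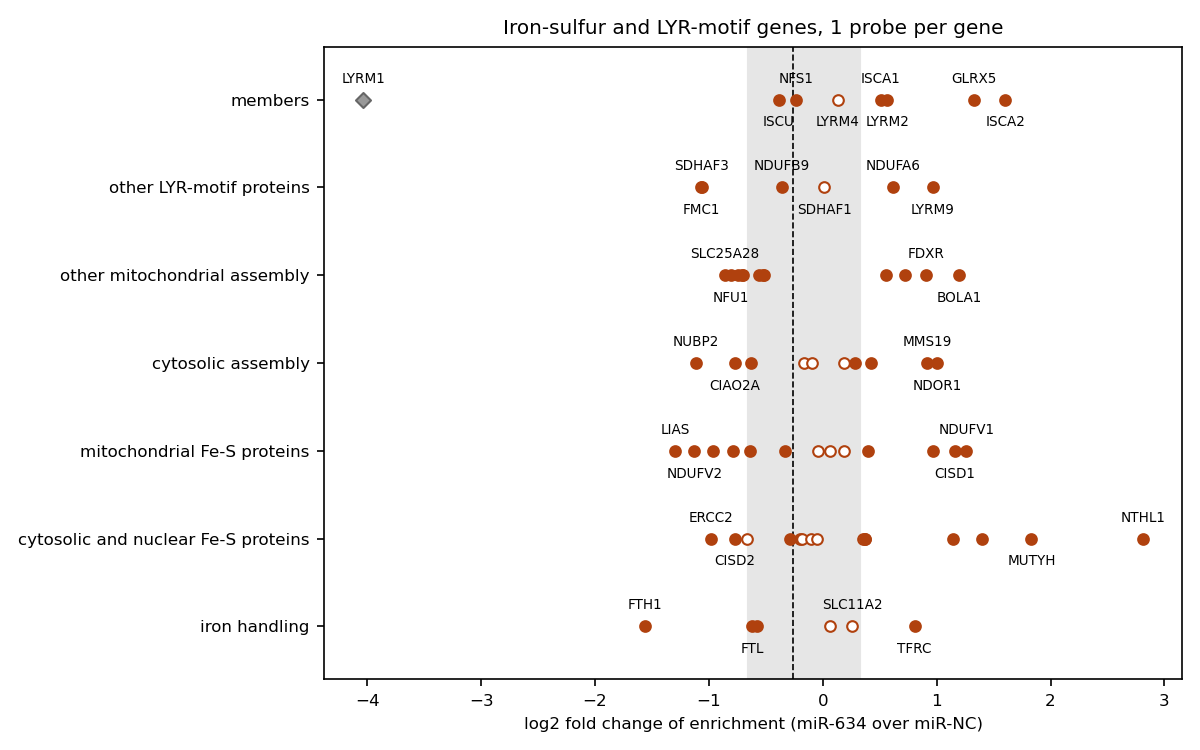
Log2 fold change of enrichment (miR-634 over miR-NC) of 1 probe per gene for the 9 examined genes (members; LYRM7 was not measured) and the other lists, with named genes labelled. Filled circles have an adjusted p under 0.05, open circles do not, the diamond is LYRM1, which was not tested, the broken line is the median of all probes (-0.26) and the band spans their quartiles (-0.66 to 0.33); with spike-in scaling all values move up by 1.102.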

How the data were processed

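For each array, the authors deposited the intensity of every spot from Agilent Feature Extraction (9.1 per the labels, 12.0.1.1 per the file headers), corrected for local background within the array. The authors also deposited a table of log2 values centered on each probe's median, used here as an alternative; its scaling is not stated, and its array medians were -0.44 and -0.38 for input and 0.88 and 0.86 for RIP of miR-NC cells, and -0.42 and -0.39 for input and 0.36 and 0.32 for RIP of miR-634 cells.

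Spots of controls and outliers were dropped and replicate spots averaged. From each log2 intensity, the 75th percentile of its array was subtracted, taken over the probes well above background on all 8 arrays, since these were 28.9% of all probes. No spot was saturated. A symbol was found for 31100 of the 33080 probes that name a RefSeq accession, by way of the RefSeq gene table of GRCh38.p14. Sequences came from RefSeq.

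The 4 group means were fitted with limma 3.58.1 in R 4.3.3 (lmFit, eBayes), 1 value per probe, with Benjamini-Hochberg adjustment over the 16808 probes and a threshold of 0.05. The script was tested on simulated data. Python 3.11.15 with pandas 2.3.3 wrote the tables, and matplotlib 3.10.9 drew the plots. The members and lists were chosen with earlier results of these data known. Named genes are all members with all probes, the 2 highest and 2 lowest genes of each other list by fold change of enrichment, every measured gene of the other LYR-motif list, BCS1L beside UQCRFS1, the 3 probes next to LYRM1 in the order of falls, and the 5 nearest profiles, with cell type markers by count; CD14, CDH5, VWF, PMEL, PECAM1, MLANA and ETFRF1 were named after their values were seen. A gene's brightest measured probe stood for it.

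All arrays were on 1 slide and 1 scan day, so no slide block was fitted. Row 1 of the slide held the inputs and row 2 the RIP arrays, and columns 1 and 2 held miR-NC, columns 3 and 4 miR-634, so position and group cannot be told apart. Alternatives were other background corrections, scalings, filters, probe rules and tests, a replicate block and each array left out. Normexp used the median signal of each spot. Sites of miR-634 in these mRNAs were not analysed here.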

Additional observations from a re-analysis of the deposited data

How the results depend on the processing

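With scaling on the spike-in probes, in the fold change of enrichment, probes called higher went from 4189 to 10664 and probes called lower from 7315 to 287, and the share called higher among all calls went from 36.4% to 97.4%. Members called higher went from 4 to 7 and members called lower from 2 to 0. In the RIP change, probes called higher went from 4596 to 10471 and lower from 8176 to 642 (36.0% to 94.2% higher), with members higher from 4 to 7 and lower from 2 to 0. In the input change, probes called higher went from 1415 to 24 (46.1% to 2.05% higher). In the enrichment in miR-NC cells, probes called higher went from 6106 to 78 and lower from 6916 to 16484 (46.9% to 0.471% higher), with members higher from 2 to 0 and lower from 4 to 7. In the enrichment in miR-634 cells, probes called higher went from 6011 to 934 and lower from 7854 to 14243 (43.4% to 6.15% higher), with members higher from 4 to 0 and lower from 0 to 6. This scaling sets the spike-in probes equal between arrays and so keeps differences in total signal, which the percentile removes; which of them reflects the cells was not tested.

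With the 75th percentile over all probes and with the authors' processed values, the share of higher calls went to 60.3% and 60.0% in the input change and to 47.7% in the RIP change with either. Probes called lower in the input change went from 1652 to 795 and 806. Members called lower went from 2 to 1 in the fold change of enrichment and from 2 to 0 in the RIP change with each of them. The cause was not tested.

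Without a filter, probes called lower numbered 25307 in the fold change of enrichment and 31079 in the RIP change, and probes called higher numbered 32883 in the enrichment in miR-NC cells and 27593 in that in miR-634 cells, out of 58201 probes tested. In the input change 68 were called higher and 213 lower. The share of higher calls was 15.7% in the fold change of enrichment, 24.2% in the input change, 15.4% in the RIP change, 79.4% in the enrichment in miR-NC cells and 72.8% in that in miR-634 cells. With a filter on 1 group, 613 probes were called higher and 886 lower in the input change. Under each of these 2 filters, members called lower went from 2 to 1 in the fold change of enrichment and from 0 to 1 in the enrichment in miR-634 cells. The cause was not tested.

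With the brightest probe per gene and with the mean of the probes, which both test 10957 genes in place of 16808 probes, the numbers called lower were 4730 and 4701 in the fold change of enrichment and 5098 and 5085 in the RIP change. Those called higher were 3675 and 3689 in the enrichment in miR-NC cells and 3959 and 3970 in that in miR-634 cells. With the mean of the probes, and also with median scaling, members called lower in the fold change of enrichment went from 2 to 1. Members called lower in the input change went from 0 to 2 with the intensity trend, with the mean of the probes and with normexp and quantile. The t-test, which the paper names in its general statistics section and not for these arrays, called 4331 probes lower and 1 member higher in the fold change of enrichment after adjustment, without LYRM2, ISCA1 and ISCA2. At the p threshold of that section without adjustment, it called 3667 probes higher and 5859 lower, with 3 members higher and 2 lower. The cause was not tested.

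Leaving out 1 array at a time gave from 320 to 1592 probes called higher and from 551 to 1888 called lower in the input change. Members called lower were from 0 to 1 in the input change and from 1 to 2 in the fold change of enrichment.

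With the replicate number as a block, 4161 probes were called higher and 7321 lower in the fold change of enrichment, 1192 and 1406 in the input change, 4576 and 8167 in the RIP change, 6095 and 6905 in the enrichment in miR-NC cells, and 6011 and 7848 in that in miR-634 cells. Under the block, members called higher and lower were 4 and 2, 0 and 0, 4 and 2, 2 and 4, and 4 and 0 in the same order. Correlations of the differences between replicates ran from -0.03 to 0.08 between groups, so no deviation shared by replicate number was seen. Whether arrays with the same number came from the same lysate is not stated and cannot be told from these correlations.

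LYRM2 changed sign in the input change with the 75th percentile over all probes (0.0202), the authors' processed values (0.0190) and normexp and quantile (0.0167), and leaving out an array gave -0.0734 to 0.00188. LYRM4 NM_020408 probe 1 changed sign in the RIP change with the 75th percentile over all probes (0.11), the authors' processed values (0.11) and spike-in scaling (0.80). Its RIP change ran from -0.129 to 0.00256 when an array was left out. The mean of the LYRM4 probes, a value of the gene and not of probe 1, had a fold change of enrichment of -0.0658. The RIP change of this mean was -0.29 and was called. LYRM4 NM_001164840 probe 2 changed sign with spike-in scaling in the fold change of enrichment (0.77) and the RIP change (0.27). LYRM4 NM_020408 probe 3 ran from -0.0916 to 0.0939 in the fold change of enrichment when an array was left out, and changed sign in the RIP change with normexp and quantile (0.0286) and spike-in scaling (0.65).

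NFS1 NM_021100 probe 1 changed sign with spike-in scaling in the fold change of enrichment (0.87) and the RIP change (0.58), and in the input change with the 75th percentile over all probes (0.0125) and the authors' processed values (0.0117). NFS1 NM_001198989 probe 2 changed sign in the fold change of enrichment with normexp and quantile (-0.0238), and leaving out an array gave -0.0492 to 0.0816. Its input change was 0.00760 with the 75th percentile over all probes, 0.00640 with the authors' processed values, 0.0468 with normexp and quantile and 0.0108 with quantile, and from -0.105 to 0.00829 when an array was left out. Its RIP change was 0.14 with the 75th percentile over all probes, 0.14 with the authors' processed values, 0.0182 with median scaling, 0.0231 with normexp and quantile, 0.0755 with quantile and 0.83 with spike-in scaling, and from -0.0975 to 0.0332 when an array was left out. ISCU changed sign with spike-in scaling in the fold change of enrichment (0.72), the input change (-0.11) and the RIP change (0.60). The cause was not tested.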
